A study of Mus musculus with 8 samples.

Results

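Mature B cells of the mouse colon were taken as the cells that the authors' deposited annotation placed in the class B cells and in its subtype of mature B cells. They numbered 12834 of the 53080 cells in the series. The other B lineage cells in the annotation were 1538 plasma cells and 328 cells named B progenitors. Single cells of the distal colonic mucosa, stripped of the outer muscle and nerve layers, were profiled with droplet sequencing of transcript 3′ ends in 8 mice of 8 weeks of age. The 4 KO mice (mice 2, 3, 6 and 7) carried floxed Spry2 and the Vil1::Cre transgene, which the intestinal epithelium expresses, so B cells were not the cells targeted for deletion. The 4 WT mice (mice 1, 4, 5 and 8) were littermates with the same floxed Spry2 and no Cre. All 8 suspensions had been through red cell lysis and removal of annexin V-binding cells. Spry2 encodes a feedback inhibitor of receptor tyrosine kinase signalling.

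B cells recognise antigen through a surface immunoglobulin that signals through the paired chains encoded by Cd79a and Cd79b. Naive B cells carry IgM and IgD together, recirculate through lymphoid tissue by CCR7 and CXCR5, and present antigen on MHC class II molecules. In the colon they gather in isolated lymphoid follicles and patches, where activated cells can enter germinal centres and later leave as IgA-secreting plasma cells.

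The mature B cells of a KO mouse held between 1777166 and 3911752 UMIs (unique molecular identifiers, each standing for 1 captured transcript), and those of a WT mouse between 173629 and 6889507. WT mouse 8 contributed 96 mature B cells, against 1185 to 3600 in each of the other mice, so that a single UMI there is worth 5.76 CPM, the UMIs of a gene scaled to the same fixed total in every mouse. Mice 4 and 6 shared 62 cell barcodes, against 1 to 21 in the other 27 pairs, and 8 mature B cells of mouse 4 and 5 of mouse 6 carried one of them. Xist transcripts were high in mice 6 and 7 (KO) and 1 and 8 (WT), and Y-linked Ddx3y was present in mice 2 and 3 (KO) and 4 and 5 (WT). Spry2 in these cells was 2.77, 3.45, 1.79 and 1.13 CPM in KO mice 2, 3, 6 and 7 and 1.86, 1.31, 0.294 and 5.76 CPM in WT mice 1, 4, 5 and 8, close to its detection limit in both, which does not check the labels. In the epithelium, where the deletion is directed, Spry2 stood between 10.4 and 49.3 CPM in KO mice and between 11.2 and 37.6 CPM in WT mice, so the genotypes rest on the labels.

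A small fraction of the cells went against the annotation. Cell_group, a column of the deposited table that numbers the authors' clusters, placed 17 of the mature B cells in cell_group 13, and in 15 of these the 4 adult globin genes Hbb-bs, Hbb-bt, Hba-a1 and Hba-a2 made up 88.5 to 97.3% of all UMIs. These 15 cells had 25 to 236 genes detected and no UMI of Cd79a, and no other cell of the series was over 50% globin. They came from KO mice 6 (1 cell) and 7 (4 cells) and from WT mice 1, 4, 5 and 8 (2, 1, 5 and 2 cells). With them the subtype averaged 2194 ± 3822 CPM of Hbb-bs (SD, n = 8 mice), and without cell_groups 13 and 23 it averaged 37.6 ± 69.1 CPM. Results that rest on them are given below with and without these 23 cells.

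In the cells as a whole the 3 marker genes were high in every mouse, as the label has it. Cd79a, which encodes the Igα chain of the B cell receptor, stood at 2613, 2460, 2881 and 3198 CPM in KO mice 2, 3, 6 and 7 and at 2626, 2461, 2902 and 2217 CPM in WT mice 1, 4, 5 and 8. Ms4a1, which encodes CD20, was at 842, 736, 814 and 851 CPM in the KO mice and at 894, 622, 792 and 772 CPM in the WT mice. Ighd, the IgD heavy chain constant gene, was at 806, 653, 751 and 882 CPM in the KO mice and at 889, 506, 780 and 668 CPM in the WT mice. The ranges of KO and WT mice overlapped for all 3, and the lowest value of each lay in WT mouse 4 or 8. With every cell thinned to 1000 UMIs, which left out 1892 mature B cells of lower depth, 90.5% of mature B cells had a Cd79a UMI (Wilson 95% interval 89.9 to 91.0%), 51.4% an Ms4a1 UMI and 48.9% an Ighd UMI. In T cells, which should lack these genes, the shares were 0.594%, 0.228% and 0.594%. Without thinning the shares in mature B cells were 95.8%, 70.5% and 67.3%, at a median depth of 1893 UMIs a cell, against 1.62%, 0.589% and 1.79% in T cells at a median of 2404. The intervals cover counting error only.

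**Figure D1:**
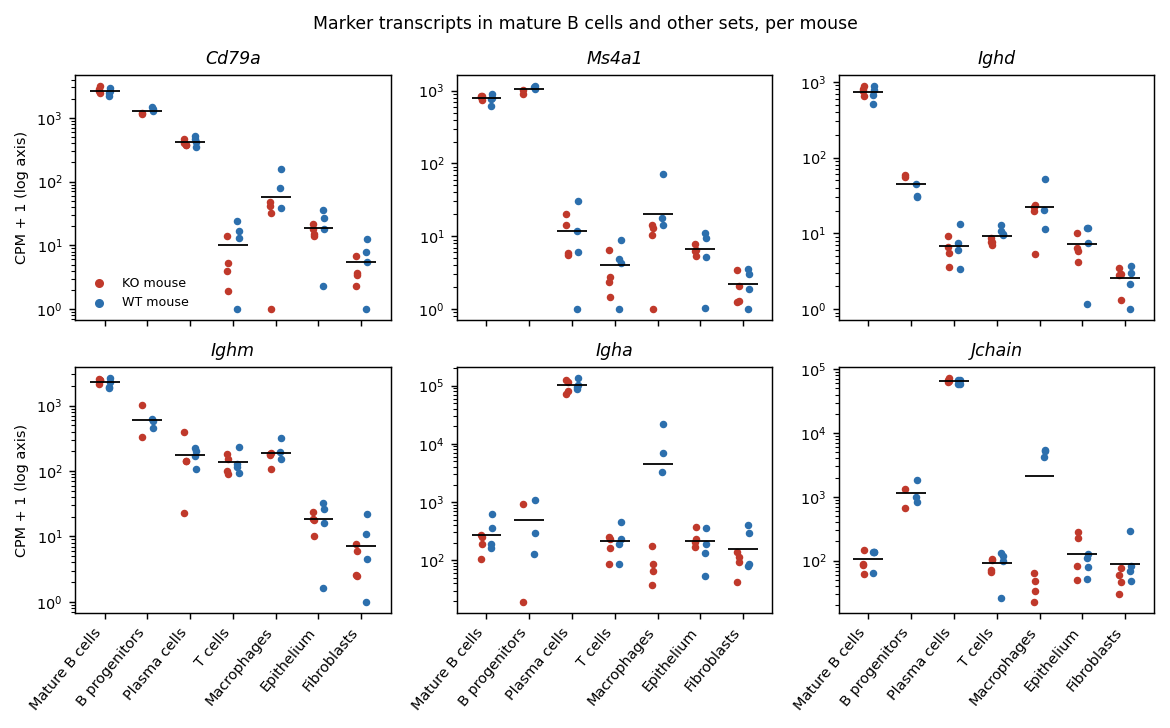
Transcript levels of 6 genes in mature B cells and 6 other sets of cells, as CPM + 1 on a log axis, 1 point for each mouse with at least 20 cells of the set (KO left and red, WT right and blue) and a line at the mean. Cd79a, Ms4a1 and Ighd are high in every mouse's mature B cells, and Igha and Jchain, at 268 and 106 CPM there, overlap the levels of T cells and epithelium and lie far below plasma cells.

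Mature B cells were set apart from the other classes compared by the B cell receptor complex, its co-receptors and B lineage regulators. Dendritic cells (33 cells), glia (42) and neutrophils (32) had 20 cells in no mouse and were not compared, and myofibroblasts entered with 3 mice. Of 2722 genes at 50 CPM or more in mature B cells, 115 (4.22%) were at least 2-fold above the highest other class on the scale of log2(CPM + 10), a description with no test because the authors clustered the cells on these same transcripts. With 50 CPM added in place of 10 the number was 72. The 20 genes with the largest ratio included the 4 globin genes. Without cell_groups 13 and 23 the other 16 kept their place among the first 20 and the globin genes were replaced by Tnfrsf13c, Ly6d, Iglc3 and Fcrl1. The receptor genes among the 16 were Cd79a (log2 ratio 4.96 over endothelium, the next highest class), Cd79b (988 ± 205 CPM, log2 ratio 4.54) and the heavy chain genes Ighd (4.6) and Ighm (2295 ± 287 CPM, 3.54). Co-receptors and receptors of the B cell surface followed: Ms4a1 (4.78), Fcmr, the Fc receptor for IgM (618 ± 133 CPM, 4.73), Fcer2a, which encodes CD23 (4.15), Cr2, the complement receptor CD21 (3.87), Cxcr5, the receptor that guides cells into follicles (3.63), and the inhibitory lectin Cd22 (3.61). Intracellular members were Pax5, the transcription factor that holds B cell identity (346 ± 41.6 CPM, 4.13), the adaptor Bank1 (641 ± 77.3 CPM, 3.96) and Fcrla (3.64). Vpreb3 (3.92) and Gm31243 (4.13) were also among them. Each of the 16 was higher in mature B cells than in that next class in every mouse that had at least 20 cells of both, which was 6 to 8 mice.

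Promoters of 10 of these 16 genes were found in the RefSeq table of mouse build GRCm38.p6, and 3 are shown: that of Cd79a, a marker in the label, and those of Vpreb3 and Cd22, the only 2 of the 10 genes with a match to either motif below. Each run is the 250 bases before the annotated start, on the strand of the gene. They were searched on both strands for the octamer ATGCAAAT, bound by OCT proteins in immunoglobulin promoters, and for the core bound by EBF1, TCCC and GGGA with any 2 bases between them. Capitals mark a match.
Cd79a, chr7:24897247-24897496, plus strand: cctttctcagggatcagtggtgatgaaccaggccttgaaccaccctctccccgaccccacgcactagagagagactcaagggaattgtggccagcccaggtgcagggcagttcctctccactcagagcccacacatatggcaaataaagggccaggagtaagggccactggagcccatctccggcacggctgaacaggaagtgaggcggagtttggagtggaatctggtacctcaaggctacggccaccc
Vpreb3, chr10:75948050-75948299, plus strand: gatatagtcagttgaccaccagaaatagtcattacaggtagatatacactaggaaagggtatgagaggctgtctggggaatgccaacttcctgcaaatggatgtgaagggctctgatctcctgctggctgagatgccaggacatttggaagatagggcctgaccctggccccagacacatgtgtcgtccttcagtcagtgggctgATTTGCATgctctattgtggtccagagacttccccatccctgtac
Cd22, chr7:30879029-30879278, minus strand: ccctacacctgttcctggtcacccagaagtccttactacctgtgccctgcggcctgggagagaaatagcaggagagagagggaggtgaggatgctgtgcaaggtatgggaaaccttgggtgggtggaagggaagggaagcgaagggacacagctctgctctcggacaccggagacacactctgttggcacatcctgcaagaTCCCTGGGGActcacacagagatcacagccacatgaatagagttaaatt
The Vpreb3 promoter held the octamer, read as ATTTGCAT, 45 bases before the start. The Cd22 promoter held the EBF1 core as TCCCTGGGGA, 49 bases before the start, and the Cd79a window held neither. Across the 13 promoter windows of the 10 genes each motif was found once, a share of 7.69%, and among all 32851 windows of the table the octamer was found in 1.60% and the EBF1 core in 0.779%. A match in letters is a description and not a bound site.

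Compared with the 2 other B lineage subtypes, mature B cells were highest in genes of naive recirculating cells. Of the same 2722 genes, 307 (11.3%) were at least 2-fold above both subtypes, and 130 with a pseudocount of 50 CPM in place of 10. Plasma cells spend most of their transcripts on antibody, and with immunoglobulin genes left out of the totals the number was 198. Ighd was at 742 ± 129 CPM (SD, n = 8) in mature B cells, against 43.3 ± 13.6 CPM in B progenitors (n = 5 mice with 20 cells) and 5.89 ± 3.26 CPM in plasma cells (n = 8). Migration genes were among the 15 with the largest ratio over both subtypes. Ccr7, the lymph node homing receptor, was at 707 ± 120 CPM in mature B cells, 51.7 ± 28.3 CPM in B progenitors and 6.97 ± 2.58 CPM in plasma cells. Gpr183, the oxysterol receptor that positions B cells in follicles, was at 370 ± 95.1 CPM in mature B cells, with 31.3 CPM in B progenitors and 42.0 CPM in plasma cells. Satb1, a chromatin organiser, was at 862 ± 210, 97.8 ± 45.8 and 16.3 ± 6.06 CPM in mature B cells, B progenitors and plasma cells, and Zfp318, needed for IgD splicing, at 201 ± 29.6, 19.6 ± 8.35 and 3.92 ± 2.02 CPM. The same ranking also held Plaur, Cd38, Vps37b, Serpinb1a, Gm31243, Gm19951 and 3 globin genes. Without cell_groups 13 and 23 the other 12 of the 15 remained, and Il10ra, Snn and Egr3 took the place of the globin genes. Vps37b and Serpinb1a were lower in mature B cells than in T cells and epithelium, the highest other classes, in 8 of 8 mice.

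Germinal centre and cell cycle transcripts were lower in mature B cells than in the cells named B progenitors. The 11 genes of a germinal centre list summed to 97.8 ± 25.8 CPM in mature B cells and 2371 ± 216 CPM in B progenitors. Mki67, a proliferation marker, was at 4.25 ± 3.42 CPM in mature B cells and 749 ± 211 CPM in B progenitors, and Rgs13, which damps chemokine receptor signals in germinal centre B cells, at 1.54 ± 1.04 and 331 ± 67.2 CPM. None of the 11 germinal centre genes reached 50 CPM in mature B cells, and all 11 did in B progenitors. A 12-gene list of early B cell development summed to 341 ± 42.5 CPM in mature B cells and 363 ± 78.3 CPM in B progenitors, and in both subtypes Vpreb3 was the only member at 50 CPM or more. Not all genes that set mature B cells apart from other classes were higher than in B progenitors. Ms4a1 was at 791 ± 83.9 CPM in mature B cells and 1048 ± 104 CPM in B progenitors, Cd79b at 988 ± 205 and 1007 ± 175 CPM, and Vpreb3 at 315 and 352 CPM.

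Against plasma cells, mature B cells were lowest in secretory and antibody genes. Jchain, which joins IgA dimers, was at 106 ± 36.0 CPM in mature B cells and 65281 ± 4587 CPM in plasma cells. Xbp1, the regulator of the secretory apparatus, was at 55.1 ± 10.1 CPM in mature B cells against 1424 ± 314 CPM in plasma cells, and Sdc1, which encodes the plasma cell marker CD138, at 10.2 ± 5.04 against 377 ± 32.0 CPM. Igha was seen in 19.9% of thinned mature B cells, 19.8% of thinned T cells and 12.7% of thinned fibroblasts. Without thinning its share of mature B cells ran from 15.9% in KO mouse 2 to 75.0% in WT mouse 5. What part free Igha transcripts have in its level in mature B cells was not tested. Jchain was found in 10.2% of thinned mature B cells and 7.42% of T cells. The rest of the 15 genes lowest against plasma cells were Igha, Iglc1, Slpi, Iglv1, Ly6c2, Tmem176a, Igkc, Tmem176b, Ccr10, Ighg1, Tnfrsf17 and Glipr1.

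Transcripts of MHC class II genes were abundant in mature B cells. The 12 measured genes of the MHC class II list summed to 29994 ± 3093 CPM in mature B cells (n = 8), against 41918 ± 4790 CPM in macrophages (n = 7), which also present antigen, 16127 CPM in B progenitors, 4478 CPM in plasma cells and 345 CPM in T cells. Cd74, the invariant chain that escorts class II molecules, alone reached 15263 ± 1682 CPM. Among transcription factors Ebf1 was at 1941 ± 252 CPM. Of 9 listed memory genes 3 reached 50 CPM in mature B cells, and the list summed to 469 ± 37.2 CPM there, against 196 CPM in B progenitors and 32.7 CPM in plasma cells. Of 13 marginal zone and B-1 genes 5 reached 50 CPM, and they summed to 799 ± 61.2 CPM, against 1398 CPM in B progenitors and 3220 CPM in plasma cells. Among the members below 50 CPM in these lists were Cd80, at 2.66 ± 2.00 CPM, and Cd5, at 1.75 ± 1.72 CPM. They do not stand for the members above that level. Light chain usage was read in the 12261 mature B cells with at least 3 light chain UMIs. At least 80% of light chain UMIs were kappa in 8693 cells and lambda in 316, and 3252 cells were mixed. Igkc had a UMI in 52.3% of T cells at their full depth (26.5% thinned) and in 97.5% of mature B cells (96.1% thinned), so that free kappa transcripts can reach these calls, and the mixed cells are not read as cells with both chains. The lambda share of all 12261 cells was 2.64%, 2.20%, 3.63% and 3.29% in KO mice 2, 3, 6 and 7, and 2.76%, 1.48%, 3.71% and 0% in WT mice 1, 4, 5 and 8, with 0 of 89 cells in mouse 8. The genotypes overlapped (exact two-sided permutation test, p = 0.371).

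The mature B cells were divided over 3 large cell_groups whose proportions differed strongly between mice. Cell_group 1 held 6713 cells, cell_group 7 held 3600 and cell_group 9 held 2498, and cell_groups 13 and 23 held 17 and 6. Cell_group 7 made up 9.55%, 47.9%, 0.544% and 0.0844% of the mature B cells of KO mice 2, 3, 6 and 7, and 1.08%, 73.5%, 1.66% and 8.33% of those of WT mice 1, 4, 5 and 8. It was therefore mostly 1 mouse of each genotype, KO mouse 3 and WT mouse 4. Cell_group 9 made up 39.0%, 28.9%, 6.65% and 2.62% of the cells of KO mice 2, 3, 6 and 7, and 32.2%, 17.7%, 6.09% and 7.29% of those of WT mice 1, 4, 5 and 8. All of mice 1 to 4 lay above all of mice 5 to 8 in this share, in both genotypes, although the submitters' protocols describe a single batch. Cell_group 1 took 66.0 ± 35.3% of KO and 62.1 ± 37.0% of WT mature B cells (SD, n = 4 each, exact two-sided permutation p = 0.857). For cell_group 7 the means were 14.5 ± 22.7% in KO and 21.1 ± 35.04% in WT mice (exact permutation p = 0.686), and for cell_group 9 they were 19.3 ± 17.5% and 15.8 ± 12.1% (exact permutation p = 0.800). Adjusted over the 3 groups each p is 0.857. Without WT mouse 4, KO minus WT turned to 10.8 percentage points, against -6.62 with it, for cell_group 7 and to -13.9, against 3.90, for cell_group 1. Cell_group 1 also turned without KO mouse 6 (-4.99) or KO mouse 7 (-6.41), and cell_group 9 turned to -3.08, against 3.49, without KO mouse 2. With 4 mice a side the smallest p is 0.0286, or 0.0857 adjusted if only 1 of 3 reached it, so 1 cell_group alone could not pass 0.05 after adjustment.

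**Figure D2:**
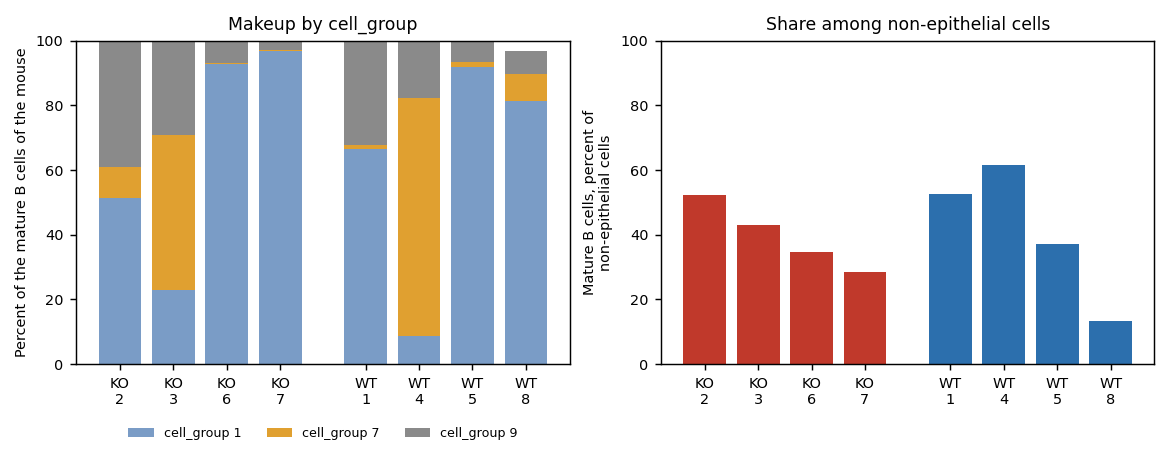
Left, the percent of each mouse's mature B cells in cell_groups 1, 7 and 9 (stacked; the remainder to 100% is cell_groups 13 and 23). Right, mature B cells as a percent of the non-epithelial cells of the mouse. KO mice stand left of WT mice, and cell_group 7 is large only in KO mouse 3 and WT mouse 4.

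Cell_group 7 differed from cell_group 1 of the same mice by higher immediate early, heat shock and activation transcripts. The comparison could be made in the 4 mice with at least 20 cells of both, KO mice 2 and 3 and WT mice 4 and 5, with 24 cells of cell_group 7 in mouse 5, and it is a description, since the clusters were drawn from these genes. Of 2936 genes at 50 CPM or more in either group, 538 (18.3%) were higher in cell_group 7 in every mouse and 457 (15.6%) lower in every mouse. Of the 17 members of the immediate early and dissociation stress list at that level, 16 were higher in every mouse, with a median log2 ratio of 0.75 against -0.00 over all 2936 genes. Fos, an AP-1 subunit, was at 952, 419, 593 and 1210 CPM in cell_group 7 of mice 2, 3, 4 and 5, against 375, 278, 356 and 425 CPM in cell_group 1 of the same mice. Nr4a1, a nuclear receptor induced by antigen receptor signalling, was at 1112, 687, 611 and 1349 CPM in cell_group 7 and 403, 496, 368 and 402 CPM in cell_group 1. Every mouse was higher in cell_group 7 for both genes, the 2 cell_groups did not overlap for Nr4a1, and for Fos cell_group 7 of mouse 3 lay below cell_group 1 of mouse 5. The heat shock genes Dnajb1 and Hspa1b had mean log2 ratios of 1.00 and 1.02, and Hspa1a, the exception, ranged from -0.42 to 1.87 over the mice.

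Of 12 activation genes at that level, 5 were higher in cell_group 7 in every mouse. Of all 2936 genes, 18.3% were higher and 15.6% lower in every mouse. Cd86, a co-stimulatory ligand for T cells, was at 245, 209, 221 and 233 CPM in cell_group 7 of mice 2, 3, 4 and 5 against 145, 112, 109 and 138 CPM in cell_group 1, and Cd83 had a mean log2 ratio of 0.68. Of 9 homing and chemokine receptor genes 5 were higher in cell_group 7 in every mouse and 1 lower, and of 13 naive follicular genes 5 were higher and 0 lower. Klf2, the regulator of lymphocyte egress, was at 876, 916, 635 and 1233 CPM in cell_group 7 against 535, 594, 313 and 643 CPM in cell_group 1, and Cxcr4 had a mean log2 ratio of 0.88. Each of these values was above that of cell_group 1 of the same mouse. Cd79b ran the other way, at 696 ± 69.1 CPM in cell_group 7 and 957 ± 124 CPM in cell_group 1 (n = 4). Cytosolic ribosomal protein genes were lower in every mouse for 52 of 76, with a median log2 ratio of -0.16, and the 18 B cell identity genes had a median of 0.08. Epithelial markers had a median log2 ratio of 0.37, 4 of 9 being higher in every mouse, and their part in this comparison was not tested. Among the 10 genes highest in cell_group 1 over all other mature B cells were Mif, Ranbp1, Nme1, Eif5a and Npm1. Those other cells include cell_group 9, and Mif, Ranbp1 and Npm1 were among its 10 lowest genes. Mif was also among the 10 lowest of cell_group 7. Npm1 was at 1032 ± 256 CPM in cell_group 1 and 466 ± 159 CPM in the other mature B cells (n = 7 mice).

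Promoters of 16 of the 18 genes of the immediate early and dissociation stress list were searched for the cyclic AMP response element TGACGTCA. It was present in Dusp1, a MAP kinase phosphatase with a mean log2 ratio of 0.68, and Btg2, an antiproliferative gene with a ratio of 0.66. These 2 of 18 windows are 11.1%, against 1.55% of all 32851 windows, and the capitals mark the element.
Dusp1, chr17:26508473-26508722, minus strand: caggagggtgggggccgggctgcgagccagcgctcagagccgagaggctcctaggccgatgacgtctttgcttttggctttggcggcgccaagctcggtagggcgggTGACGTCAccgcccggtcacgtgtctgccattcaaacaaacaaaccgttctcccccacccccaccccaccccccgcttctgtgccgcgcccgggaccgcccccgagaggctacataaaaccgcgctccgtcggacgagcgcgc
Btg2, chr1:134079156-134079405, minus strand: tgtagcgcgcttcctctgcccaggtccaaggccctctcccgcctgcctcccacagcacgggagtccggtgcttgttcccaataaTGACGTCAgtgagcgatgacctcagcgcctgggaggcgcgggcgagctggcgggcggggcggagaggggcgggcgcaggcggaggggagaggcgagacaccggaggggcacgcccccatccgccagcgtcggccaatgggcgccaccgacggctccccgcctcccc
It lay 143 bases before the start in Dusp1 and 166 bases before the start in Btg2, and the other promoters searched held none. A match in letters is not a bound site, and a part of the element in these levels was not tested.

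Cell_group 9 was the shallow part of the subtype. Its cells had a median of 793 UMIs and 490 genes, against 2062 UMIs and 950 genes in cell_group 1, and a median mitochondrial share of 13.7%, against 5.38%. In the 7 mice with at least 20 cells of both groups, the B cell markers stood close together: Cd79a was at 2503 ± 456 CPM in cell_group 9 and 2633 ± 463 CPM in cell_group 1, and Ighd at 742 ± 132 and 744 ± 153 CPM. Epithelial transcripts were higher in every mouse for 13 of 14 listed markers, with a median log2 ratio of 1.95, where 500 of all 3137 genes (15.9%) were higher in every mouse. Epcam, an epithelial adhesion gene, was at 236, 250, 302 and 131 CPM in cell_group 9 of KO mice 2, 3, 6 and 7 and at 184, 462 and 279 CPM in WT mice 1, 4 and 5. In cell_group 1 of the same mice it was at 69.2, 65.4, 24.2 and 26.0 CPM in KO and 58.8, 104 and 33.8 CPM in WT. The lowest cell_group 9 mouse thus lay above the highest cell_group 1 mouse. All 13 mitochondrially encoded genes were higher in every mouse (median log2 ratio 1.69), and mt-Co1 averaged 51455 ± 5318 CPM in cell_group 9 against 11342 ± 1965 CPM in cell_group 1. Ribosomal protein genes were lower in every mouse for 74 of 76 (median -1.11), where 689 of the 3137 genes (22%) were lower in every mouse. What part depth, free epithelial RNA or mitochondrial content has in this group was not tested.

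**Figure D3:**
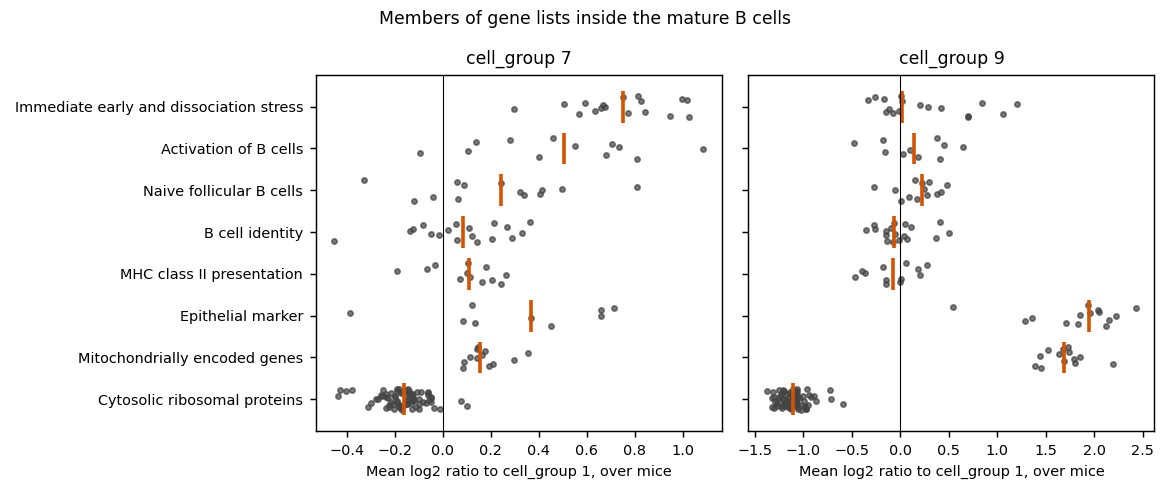
Mean log2 ratio of each list member at 50 CPM or more to cell_group 1 of the same mice, for cell_group 7 (left, 4 mice) and cell_group 9 (right, 7 mice), with an orange line at the list's median. The horizontal scales differ between panels, and the immediate early list stands highest on the left while epithelial and mitochondrial genes stand highest on the right.

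The frequency of mature B cells differed between KO and WT mucosa by less than the spread between mice. They made up 22.8%, 20.9%, 26.9% and 21.7% of all cells in KO mice 2, 3, 6 and 7, and 24.1%, 35.6%, 22.0% and 2.91% in WT mice 1, 4, 5 and 8. The KO mice lay close together, and the WT mice held both the highest and the lowest value. The means were 23.1 ± 2.68% in KO and 21.2 ± 13.6% in WT (n = 4 each, exact two-sided permutation p = 0.8286). Among non-epithelial cells the share was 39.6 ± 10.4% in KO and 41.2 ± 21.0% in WT (exact permutation p = 0.886), and among B lineage cells 85.0 ± 9.53% and 77.4 ± 17.6% (exact permutation p = 0.543). Adjusted over the 3 denominators each p is 0.886. Among non-epithelial cells KO minus WT was -1.55 percentage points, and it turned to 2.28 without WT mouse 1, 5.21 without WT mouse 4, 0.12 without KO mouse 6 and 2.15 without KO mouse 7, and reached -10.8 without WT mouse 8. Among B lineage cells it was 7.61, and -0.70 without WT mouse 8. KO minus WT was 1.90 percentage points of all cells, and -4.19 without WT mouse 8, a turn of direction. Epithelial cells, 78.3% of that mouse, were 22.2 to 56.5% of the KO and 40.7 to 54.2% of the other WT mice. Median UMIs per mature B cell were 1832 ± 306 in KO and 1887 ± 169 in WT mice (exact permutation p = 0.914).

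Between genotypes no gene of the mature B cells passed the test. UMIs were summed per mouse and 9587 genes tested with edgeR's quasi-likelihood test, and 0 of them (0%) had a Benjamini-Hochberg adjusted p under 0.05. At an unadjusted p under 0.05 there were 140 genes by edgeR, and DESeq2 called 0, with 37 genes under 0.05 unadjusted. Genes are therefore given by their values, the 10 of smallest p in each direction, all at an adjusted p of 0.9999. The samples are separate mice, and p-values measure the spread between them. On the scale of TMM-scaled CPM, 52 genes (0.542%) lay in every KO mouse below every WT mouse and 65 (0.678%) in every KO mouse above every WT mouse.

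Slfn5, an interferon-responsive gene of the Schlafen family, had the smallest p among the lower genes. It was at 8.99, 3.41, 8.14 and 7.21 CPM in KO mice 2, 3, 6 and 7, against 33.8, 16.6, 10.8 and 27.6 CPM in WT mice 1, 4, 5 and 8. The genotypes did not overlap, and the log2 fold change was -1.56 ± 0.38 (SE). Mki67 was at 2.10, 2.39, 1.84 and 1.11 CPM in KO mice and 6.33, 4.87, 4.15 and 11.1 CPM in WT mice (log2 fold change -1.45 ± 0.36), a level that rests on few cells and, in mouse 8, on 2 UMIs. Mid1, which encodes a ubiquitin ligase of microtubules and lies near the end of the X chromosome, was at 6.30, 9.21, 6.83 and 2.22 CPM in KO and 14.8, 25.4, 9.88 and 38.7 CPM in WT mice. Bak1, a pro-apoptotic BCL2 family member, was the tightest of the 4, at 11.1, 14.7, 14.4 and 15.5 CPM in KO against 18.7, 22.2, 20.7 and 22.1 CPM in WT mice (log2 fold change -0.58 ± 0.18). These 4 of the 10 lower genes did not overlap between the genotypes, but the 10 were picked by smallest p from these same values. Of all 9587 genes, 52 (0.542%) lay in every KO mouse below every WT mouse. The remaining 6 were Rtp4, Kcnn4, Gm47283, Lyz2, Uqcr11 and Krt7, with log2 fold changes between -2.42 and -0.68.

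Of the 10 genes of smallest p among those higher in KO, Utp15, a factor of ribosomal RNA processing, was at 26.7, 24.9, 28.6 and 26.6 CPM in KO mice 2, 3, 6 and 7 and at 17.8, 21.9, 19.8 and 16.6 CPM in WT mice 1, 4, 5 and 8 (log2 fold change 0.43 ± 0.16). Tbc1d10a, a Rab GTPase activator, was at 28.8, 30.02, 30.5 and 30.5 CPM in KO and 18.7, 26.0, 23.3 and 22.1 CPM in WT mice. Neither gene overlapped between the genotypes, and their same sign in mice 1 to 4 and mice 5 to 8 taken alone follows from that. Both were picked by smallest p from these same values. Of all 9587 genes, 65 (0.678%) lay in every KO mouse above every WT mouse. Maml3, Med6, Mrps28, Capn10, Gm26724 and Zxdb had log2 fold changes between 0.45 and 0.77. The markers themselves differed by less than their error, with log2 fold changes of 0.09 ± 0.16 for Cd79a, 0.04 ± 0.15 for Ms4a1 and 0.09 ± 0.18 for Ighd.

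**Figure D4:**
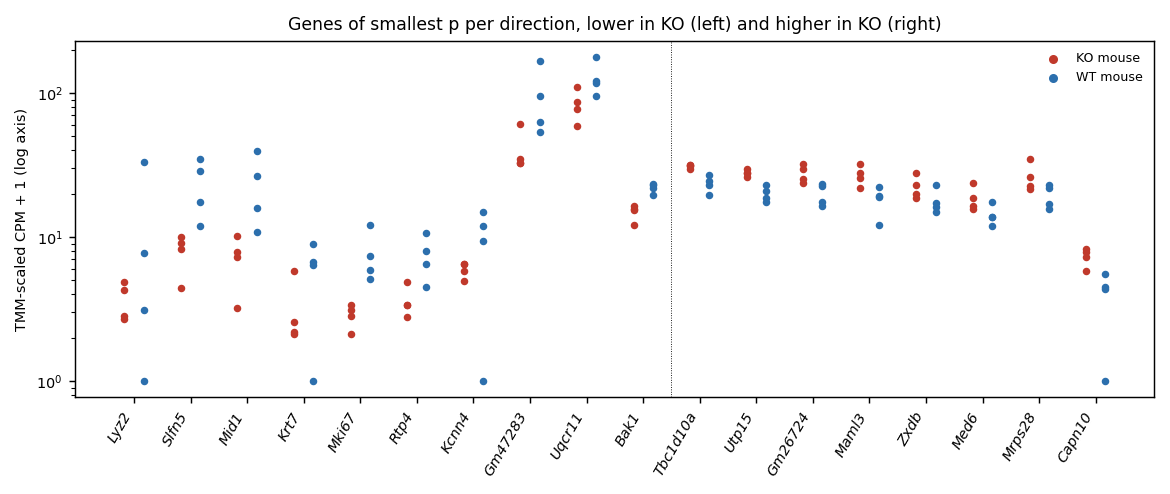
TMM-scaled CPM + 1 on a log axis for named genes of smallest p in each direction, ordered by log2 fold change, with KO mice left and red and WT mice right and blue. None passed the adjusted test, and the points of Slfn5, Mki67, Mid1, Bak1, Utp15 and Tbc1d10a do not overlap between genotypes.

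No member of any gene list passed the test, and the lists of the B cell programme had medians near that of all genes. Of all 9587 genes 50.3% had a log2 fold change above 0 and 49.7% below 0, and their median was 0.00. Of 18 B cell identity genes 13 had a positive log2 fold change (median 0.05), of 20 receptor signalling genes 14 (median 0.06), of 13 naive follicular genes 8 (median 0.04) and of 12 MHC class II genes 10 (median 0.06). The class II members included H2-Ab1 at 3923 ± 432 CPM in KO and 3446 ± 648 CPM in WT mice (log2 fold change 0.19 ± 0.17) and Ciita, the class II transactivator, at 284 ± 52.4 CPM in KO and 337 ± 77.8 CPM in WT mice (-0.26 ± 0.19). Lineage transcription factors were split, 9 above and 9 below 0. Of 5 tested Sprouty and MAPK feedback genes 3 were above 0.

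Interferon genes did not pass the test, and most had values below 0. Of 9 tested members 8 had a negative log2 fold change, with a median of -0.40, and 3 had an unadjusted p under 0.05. Ifi27l2a, the most abundant, was at 149, 111, 224 and 114 CPM in KO mice 2, 3, 6 and 7 and at 362, 206, 199 and 204 CPM in WT mice 1, 4, 5 and 8 (log2 fold change -0.72 ± 0.25). KO mouse 6 lay inside the WT range for it. Isg15, a ubiquitin-like protein, averaged 6.51 ± 1.39 CPM in KO and 14.3 ± 6.10 CPM in WT mice (log2 fold change -0.91 ± 0.30). The list's median was -0.68 in mice 1 to 4 alone and -0.20 in mice 5 to 8 alone.

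Among markers of other cells, the epithelial list, the tested fibroblast markers and the 4 globin genes each had a single sign in the test of all 8 mice. All 16 epithelial markers had a negative log2 fold change, with a median of -0.70 and a range from -1.04 to -0.39, and none passed the test, 1 having an unadjusted p under 0.05. Their summed level was 350.5 to 1476 CPM in KO mice and 708 to 2667 CPM in WT mice. Krt8, an epithelial keratin, averaged 152 ± 104 CPM in KO and 233 ± 152 CPM in WT mice (log2 fold change -0.68 ± 0.49). In mice 5 to 8 alone, a choice made after seeing the data, 26 genes were lower in KO and 1 higher by the adjusted edgeR test. The lower genes were led by the goblet cell genes Spink4, Muc2 and Retnlb, and there the KO mice had 22.2 and 23.8% epithelial cells and the WT mice 40.7 and 78.3%. In mice 1 to 4 alone 0 genes passed, with 149 at an unadjusted p under 0.05. There KO mice 2 and 3 had 56.5 and 51.4% epithelial cells and WT mice 1 and 4 had 54.2 and 42.0%. The median log2 fold change of the epithelial list was -0.40 in mice 1 to 4 alone and -1.20 in mice 5 to 8 alone. The part that free epithelial RNA has in these differences was not tested. All 5 tested fibroblast markers, of 10 listed, had a negative log2 fold change, with a median of -0.22. Their median was 0.41 in mice 1 to 4 alone and -1.06 in mice 5 to 8 alone. Summed fibroblast markers were at 39.0 ± 6.11 CPM in KO and 37.4 ± 27.7 CPM in WT mice. Endothelial markers were at 134 ± 10.6 and 128 ± 31.8 CPM, and macrophage and myeloid markers at 237 ± 15.4 and 238 ± 24.8 CPM. Of the 12 macrophage and myeloid markers 2 were tested. Lyz2 had the lowest log2 fold change of all 9587 genes, at -2.42, and the other was at 0.00. The 4 globin genes had a median log2 fold change of -2.25, and of 0.70 once cell_groups 13 and 23 were left out. Immediate early genes were below 0 for 15 of 17 (median -0.26), at 0.01 in mice 1 to 4 alone and -0.40 in mice 5 to 8 alone.

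**Figure D5:**
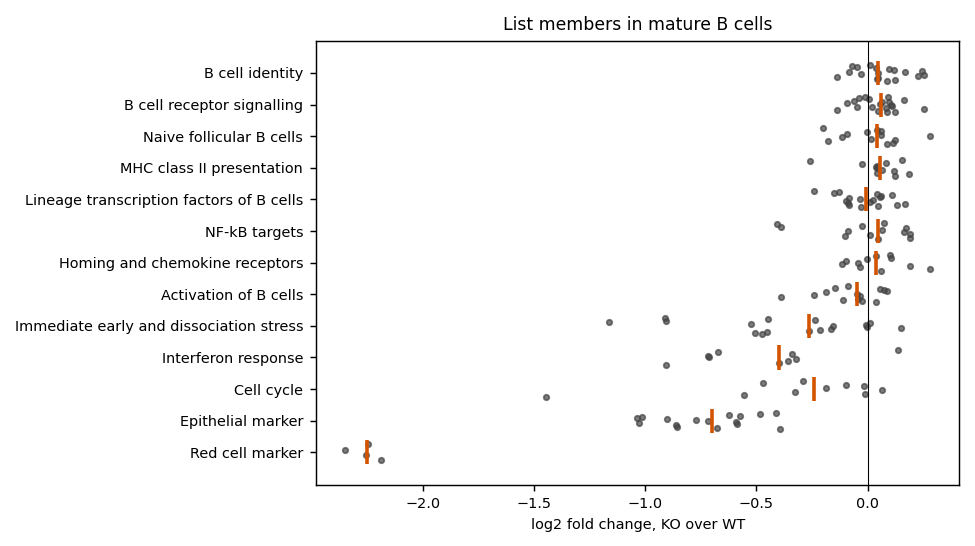
Log2 fold change of KO over WT for each tested member of 13 gene lists in mature B cells, 1 point a gene, with an orange line at the list's median. B cell lists centre on 0, the epithelial and red cell lists lie wholly below 0, and no gene passed the adjusted test.

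The genotypes were also compared within single cell_groups. In cell_group 1, 0 of 8677 genes (0%) passed with edgeR and 0 with DESeq2, with 168 and 55 genes at an unadjusted p under 0.05. In cell_group 9, tested in the 7 mice with at least 20 of its cells, 0 of 5799 genes (0%) passed with either tool, with 121 and 35 genes under 0.05 unadjusted. Cell_group 7 had 20 cells in 2 mice of each genotype and was not tested.

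Whether genotype acted differently on mature B cells than on other cells of the same mice was tested as an interaction with the mouse as a block. Against plasma cells 1 of 10785 genes (0.00927%) passed, and against T cells 0 of 10636 (0%), with 416 genes at an unadjusted p under 0.05. The gene was Igkv8-24, a kappa variable gene, with a difference in log2 fold change of -8.77 ± 1.52 (edgeR, adjusted p = 0.0456). In mature B cells it had 0, 0, 1 and 0 UMIs in KO mice 2, 3, 6 and 7 and 0, 2, 3 and 1 UMIs in WT mice 1, 4, 5 and 8. In plasma cells it had 0, 226, 22 and 8 UMIs in the same KO mice and 0, 0, 5 and 0 UMIs in the WT mice. Most of its UMIs were thus in plasma cells of KO mouse 3, and without that mouse the adjusted p was 1. The call was also lost without WT mouse 5 (adjusted p = 0.155) and without WT mouse 8 (adjusted p = 0.172).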

How the data were processed

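The authors deposited a matrix of UMI counts per gene and cell, a table annotating the cells, and for each cell a size factor. That ratio, deposited by the authors, served here only to match cells to columns. The reads were processed with Cell Ranger 3.0.2 against mm10, per the submitters' processing notes. The annotation table was sorted by mouse and barcode, after which all 53080 size factors matched the matrix columns (tolerance 1e-06). Doublets marked in the annotation were left out of the other classes and none lay among the mature B cells. Counts were summed per mouse and set of cells, and sets with under 20 cells in a mouse were not used there. Levels are CPM of these sums, and ratios between sets add a pseudocount of 10 CPM. KO and WT were compared with edgeR 4.0.16 (quasi-likelihood test, filterByExpr, TMM) across all genes, DESeq2 1.42.0 being an alternative, and shares with exact permutation tests over 70 assignments (scipy 1.17.1). The fits were tested on simulated data. The named genes are the 10 of smallest p per direction where fewer than 10 pass, those ranked by ratio between sets at 50 CPM or more, and members of 27 gene lists (328 of 329 genes found); some of these are not reported here. The members and lists were chosen with earlier results of these data known. Alternatives included other normalizations and filters, each mouse left out, cells under 20% mitochondrial UMIs, 96 cells per mouse, and mice 1 to 4 against 5 to 8 as a term; mice 1 to 4 or 5 to 8 alone, subsets by Xist, barcodes of more than 1 mouse, and cell_groups 13 and 23 were added after seeing the data.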

Additional observations from a re-analysis of the deposited data

Results flagged for a closer look

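In groups of 4 mice, 4 values lay far from the other 3, among 60 groups examined; chance alone flags about 1 in 20. Cell_group 7 made up 73.5% of the mature B cells of WT mouse 4, the next WT mouse being at 8.33%. Gm47283 was at 59.9 CPM in KO mouse 6, against 31.4 to 33.8 CPM in the other KO mice. Krt7 was at 4.78 CPM in KO mouse 3, against 1.11 to 1.58 CPM in the other KO mice. Ms4a1 was at 727 CPM in KO mouse 3, against 822 to 839 CPM in the other KO mice, all TMM-scaled. The KO over WT change of Igkv8-24 differed between mature B cells and plasma cells by -8.77 on the log2 scale in the interaction test, and it rests on 226 UMIs in plasma cells of KO mouse 3.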

How the results depend on the processing

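No paired analysis was possible because mouse numbers are unique to a mouse and are not shared between the genotypes. Of the genes tested between KO and WT, 0 passed in the main test and under every alternative on all mice or all but 1, except that with no filter on low counts 2 were lower (Slfn5 and Lyz2, adjusted p = 0.0457 each). In mice 5 to 8 alone 26 were lower and 1 higher, against 0 in mice 1 to 4 alone. In the libraries with Xist transcripts alone 94 were lower and 31 higher, against 0 in those without. The calls in mice 5 to 8 and in the libraries with Xist shared 20 genes, or 74.1% of the 27 calls and 16% of the 125. Both subsets hold KO mice 6 and 7 and WT mouse 8, so the shared calls are not separate evidence. The number against plasma cells was 1 lower, 0 without TMM factors, and ran from 0 to 4 lower and from 0 to 1 higher with each mouse left out. Against T cells it ran from 0 to 2 lower and from 0 to 1 higher. Genes at least 2-fold over every other class compared numbered 72 with a pseudocount of 50 CPM. Those over both other B subtypes numbered 130, or 198 without immunoglobulin genes. Shares of mature B cells and of cell_groups changed sign when single mice were left out, as given with each, and p-values over 4 mice a side say nothing about their stability. Mouse 8, with 173629 UMIs, limits what low genes can show.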
